A study of Mus musculus with 4 samples.

Results

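The alveolar fibroblasts described here were 370 of the 25980 cells in 4 single-cell RNA libraries of mouse lung. A cell was a member if Tcf21, Itga8, Inmt, Fgfr4, Slc7a10 and Mfap4 together made up at least 0.4% of its UMIs (unique molecular identifiers, each standing for 1 captured transcript). It also had to hold less than 0.3% of its UMIs in the adventitial fibroblast genes Serpinf1, Dpt, Mfap5, Cd248 and Clec3b, less than 0.1% in the leukocyte genes Ptprc, Laptm5, Tyrobp and Coro1a, and less than 5% in the surfactant genes Sftpc, Sftpb and Sftpa1. No more than 3 UMIs of the endothelial genes Cdh5, Cldn5 and Egfl7 were allowed. The members were thus chosen by their own measured transcripts, and the levels of these genes are given as a description.

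The study compared FUNDC1 knockout (KO) with wild-type (WT) mice, in normoxia and after HySu, a rodent model of pulmonary hypertension that joins hypoxia with SU5416, an inhibitor of vascular endothelial growth factor receptors. The 4 groups were HSK (HySu, FUNDC1-KO), HSW (HySu, WT), NK (normoxia, FUNDC1-KO) and NW (normoxia, WT), all 11 weeks old. The HySu mice had 3 weekly SU5416 doses in hypoxia and the normoxic mice vehicle in room air. Cells of 5 mice were pooled into 1 library per group, and the labels give no cell type for the deletion. Fundc1 encodes a receptor on the outer mitochondrial membrane that marks mitochondria for autophagy.

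Alveolar fibroblasts, some of which hold lipid droplets and are called lipofibroblasts, lie in the alveolar wall beside alveolar type 2 cells. They supply these epithelial cells with niche ligands such as Fgf10 and Wnt2, and they lay down elastin, collagens and basement membrane. Like other fibroblasts they can switch to a contractile or matrix-secreting state, and they answer to growth factors through the ERK kinases and immediate early genes.

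HSK held 58 members of 4128 cells, HSW 67 of 5040, NK 151 of 9163 and NW 94 of 7649. These were 1.41% [1.07, 1.81] of the HSK cells, 1.33% [1.03, 1.69] of the HSW cells, 1.65% [1.40, 1.93] of the NK cells and 1.23% [0.994, 1.502] of the NW cells. Brackets hold exact 95% intervals throughout (Clopper-Pearson for shares and ratios, Poisson for levels), which cover counting error only. The 4 intervals overlapped. The libraries had been cut at different depths, with at least 4726 UMIs per cell in HSK, 4230 in HSW, 3182 in NK and 3775 in NW, which can set such shares. Among cells with at least 4726 UMIs the shares were 1.41% in HSK, where no cell was lost, 0.932% in NK and 0.859% in NW.

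The members summed to 384328 UMIs in HSK, 404466 in HSW, 695886 in NK and 505595 in NW, with a median of 6047.5 UMIs per member in HSK, 5374 in HSW, 4033 in NK and 4863 in NW. Levels below are counts per 1000000 UMIs (CPM) of these sums. With 1 library per group there is no replicate check and no test between groups, so a ratio describes these libraries and its interval leaves out the spread between mice. In a sum over cells, fewer expressing cells and less RNA per cell cannot be told apart without the values of single cells, which are given where a result turns on them. Between 20 and 70 cell barcodes were shared by any pair of libraries, and no member's barcode was shared.

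The genotype labels could be checked on Fundc1. Members held 0 Fundc1 UMIs in HSK and 23 in HSW, and 0 in NK and 15 in NW. Against a floor of 3 counts per library, Fundc1 was at least 7.29-fold lower in HSK than in HSW and at least 6.88-fold lower in NK than in NW. In all other cells the level was 0.244 CPM in HSK, 38.8 in HSW, 0.908 in NK and 42.6 in NW.

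Genes outside the rule also marked the members. Limch1 had UMIs in 100% of HSK members, 98.5% of HSW members, 98.7% of NK members and 100% of NW members, against 2.73%, 3.53%, 6.25% and 5.26% of the leukocytes of HSK, HSW, NK and NW, which should lack it. Npnt, the gene of nephronectin, an integrin ligand of the basement membrane, had UMIs in 100% of HSK and HSW members, 96.0% of NK members and 97.9% of NW members, against 4.16%, 2.945%, 6.81% and 6.24% of leukocytes. The leukocytes were the deeper cells in each library (medians of 9159 UMIs in HSK, 7851 in HSW, 5833 in NK and 6700 in NW). Ces1d, a carboxylesterase that cleaves lipid esters, had 1098 CPM in HSK, 1409 in HSW, 1151 in NK and 1116 in NW, and about 3 in 4 members of each library carried it (77.6% in HSK, 76.1% in HSW, 78.2% in NK and 77.7% in NW). All 30 identity genes listed outside the rule were detected in each of the 4 libraries.

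Signs of other cells were present at low levels. Sftpc, the surfactant gene of alveolar type 2 cells, had UMIs in 100% of the members of each library, but also in 99.8% to 100% of leukocytes, so a UMI of it does not mark a cell. Its median was 24.2 per 10000 UMIs of a member in HSK, 13.5 in HSW, 22.5 in NK and 17.3 in NW, with a highest member of 211 in HSK, 325 in HSW, 268 in NK and 72.6 in NW. The 10 surfactant and alveolar type 2 markers summed to 8867 CPM in HSK members, 6295 in HSW, 6301 in NK and 4913 in NW, against 223400 CPM in the other cells of HSK. The 8 smooth muscle markers summed to 811.8 CPM in HSK, 1847 in HSW, 1002 in NK and 401.5 in NW. The 10 pericyte markers summed to 138 CPM in HSK members, 151 in HSW, 218 in NK and 186 in NW, against 19.0, 20.7, 30.3 and 23.2 CPM in the other cells of HSK, HSW, NK and NW. Most of these UMIs were of Gucy1a1, Gucy1b1, Lamc3 and Pdgfrb, while Higd1b had none in any library and Cspg4 had 2, both in NK. The 6 mesothelial markers summed to 28.6 CPM in HSK members, 2.47 in HSW, 20.1 in NK and 19.8 in NW, nearly all of it Nkain4, and Msln had no UMI. Just 3 NW members held 113 of the library's 119 UMIs of Ager, which marks alveolar type 1 cells.

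Set beside the 142 cells of a mirrored rule for adventitial fibroblasts, which sheath vessels and airways, the members split along known lines. Cdo1, which makes taurine precursors from cysteine, was 77.0 times as high in HSK members as in HSK adventitial cells, 20.02 times in HSW, 93.6 times in NK and 33.6 times in NW. Col13a1, a transmembrane collagen and a common marker of alveolar fibroblasts, was 15.8 times as high in HSK, 41.4 times in HSW, 41.7 times in NK and 79.4 times in NW. The other 8 genes at this end were Ces1d, Scube2, Prkg2, Cox8b, Scn3a, Gyg, Mtss1 and Mapt. At the opposite end, Scara5, an iron-ferritin receptor, had 1 UMI in all 370 members, but 70 UMIs in HSK adventitial cells, 98 in HSW, 172 in NK and 300 in NW. Pi16, the adventitial progenitor marker, stood at 28.6 CPM in HSK members, 22.2 in HSW, 41.7 in NK and 49.4 in NW, and at 2236, 1593, 2616 and 2375 CPM in the adventitial cells of HSK, HSW, NK and NW. Dio2, Aldh1a2, Lsamp, Scara3, Lum, Gxylt2, Sfrp4 and Entpd2 were the other 8. Since the rule chose both sets by their transcripts, these ratios describe the sets and test nothing. Matrix genes did not separate them in the members' favour: 8 of 22 fibrillar collagen and matrix genes in HSK, 5 of 22 in HSW, 9 of 23 in NK and 9 of 22 in NW were higher in members.

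Mfap4, a microfibril protein that binds elastin and collagen, was the rule gene that differed most between HySu and normoxia. It had 7067 CPM in HSK, 7566 in HSW, 1342 in NK and 1652 in NW. The HSK level was 5.27 times that of NK [4.89, 5.68] and the HSW level 4.58 times that of NW [4.24, 4.95], while HSK stood at 0.934 times HSW and NK at 0.813 times NW. In single cells the median was 48.1 Mfap4 UMIs per 10000 in HSK and 54.4 in HSW, against 9.44 in NK and 11.4 in NW, and the lowest HSK member (12.9) and HSW member (15.5) lay above the NK and NW medians. Because Mfap4 was part of the rule, it let in 13 members of HSK, 6 of HSW, 6 of NK and 5 of NW that the other 5 genes would not have passed.

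Chosen without Mfap4 and Mfap5, an alternative added after the values were seen, the alveolar set held 60 cells in HSK, 78 in HSW, 167 in NK and 102 in NW, and Mfap4 was then 5.43 times as high in HSK as in NK [5.05, 5.83] and 4.72 times as high in HSW as in NW [4.38, 5.08]. Adventitial cells chosen without both genes had 3283 Mfap4 CPM in HSK, 2953 in HSW, 547.7 in NK and 482.8 in NW, ratios of 5.995 for HSK against NK and 6.12 for HSW against NW. In all cells other than members Mfap4 stood at 76.7 CPM in HSK, 122 in HSW, 34.7 in NK and 31.5 in NW. The higher level was thus shared by both kinds of fibroblast.

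**Figure D1:**
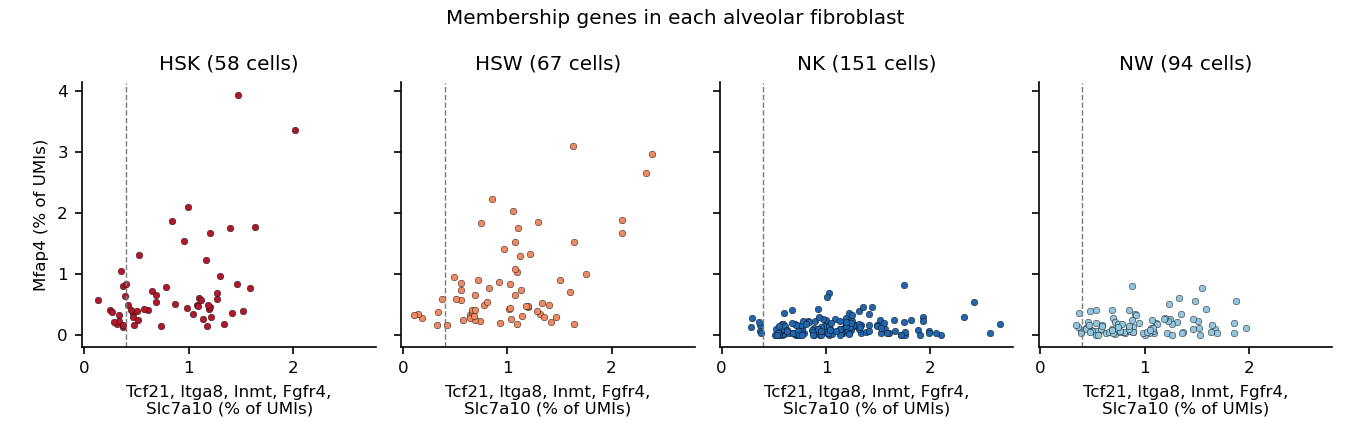
Each point is 1 alveolar fibroblast, with the share of its UMIs in Tcf21, Itga8, Inmt, Fgfr4 and Slc7a10 on the x axis (%), the share in Mfap4 on the y axis (%), and a dashed line at the 0.4% limit of the rule. HSK and HSW cells spread upward along Mfap4 (medians of 48.1 and 54.4 per 10000 UMIs), NK and NW cells stay low (9.44 and 11.4), and the few points left of the line are members through Mfap4.

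The transcription factor Tcf21, which specifies lung fibroblasts, had 447 CPM in HSK, 633 in HSW, 384 in NK and 413 in NW. Inmt, a methyltransferase, had 6401 CPM in HSK, 7397 in HSW, 8608 in NK and 7271 in NW. Itga8, an integrin chain that binds nephronectin, varied least of the 6 rule genes, at 1348 CPM in HSK, 1503 in HSW, 1464 in NK and 1430 in NW. Slc7a10, an amino acid transporter, rested on few UMIs and stood at 41.6 CPM in HSK, 47.0 in HSW, 81.9 in NK and 129 in NW. Values just inside the 0.4% limit were 0.492% in HSK, 0.431% in HSW, 0.410% in NK and 0.422% in NW, and just outside 0.357% in HSK, 0.396% in HSW, 0.395% in NK and 0.394% in NW.

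Under HySu, alveolar fibroblasts of both genotypes held more transcripts of several secreted proteins and of mitochondrially encoded genes, and fewer of immediate early genes, ERK targets and some niche ligands. A gene is counted below when its ratio reached 2, or fell to 0.5 or less, with at least 50 UMIs in the pair. In WT, 74 genes were at least 2-fold higher in HSW than in NW (2.39% of 3090) and 349 at least 2-fold lower (11.3%). In KO, 124 genes were higher in HSK than in NK (3.42% of 3626) and 589 lower (16.2%). The excess of lower genes depended on the scaling: with TMM factors (trimmed mean of M values, which gives less weight to a few very abundant genes) the split was 201 higher and 161 lower in WT and 279 higher and 303 lower in KO. TMM moved the median log2 ratio of all genes up by 0.27 in WT and 0.29 in KO, from medians of -0.29 and -0.39 that apply to every HySu ratio below.

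The WT and KO comparisons share no library. Of 2974 genes measured in both, 33 were at least 2-fold higher in both, which is 31.4% of the 105 higher in KO and 45.8% of the 72 higher in WT. Likewise 131 were at least 2-fold lower in both, 32.3% of the 406 lower in KO and 40.1% of the 327 lower in WT. Just 1 gene passed 2-fold in opposite directions. Across genes, which are not independent and share the depth of their libraries, Pearson's r between the log2 ratios was 0.61 and Spearman's rho 0.62.

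**Figure D2:**
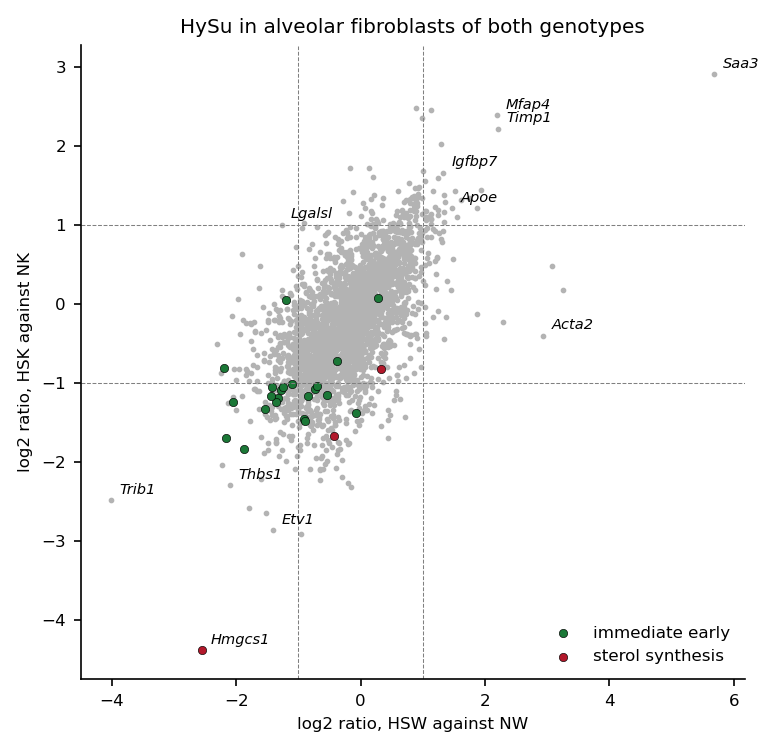
Each of the 2973 points is a gene with at least 50 UMIs in both HySu pairs and a UMI in every library, with the log2 ratio of HSW to NW on the x axis, that of HSK to NK on the y axis, and dashed lines at 2-fold. Most immediate early genes (green) and Hmgcs1 (red, with other sterol genes) lie at the lower left, Mfap4, Timp1, Igfbp7, Apoe and Saa3 at the upper right, and Acta2 is high on the x axis alone.

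Among secreted proteins, Timp1, which inhibits matrix metalloproteinases, had 445 CPM in HSK, 242 in HSW, 94.8 in NK and 51.4 in NW. It was 4.69 times as high in HSK as in NK [3.51, 6.33] and 4.71 times as high in HSW as in NW [3.03, 7.57], and more cells carried it: 46.6% of HSK members and 37.3% of HSW members, against 18.5% in NK and 14.9% in NW. Leukocytes with a Timp1 UMI made up 2.84% in HSK, 1.37% in HSW, 1.07% in NK and 0.839% in NW. Igfbp7, a matrix-bound binder of insulin-like growth factors, had 4319 CPM in HSK, 4032 in HSW, 1361 in NK and 1600 in NW, with ratios of 3.17 [2.93, 3.44] for HSK against NK and 2.52 [2.31, 2.75] for HSW against NW. Its single-cell medians were 35.6 per 10000 UMIs in HSK and 31.9 in HSW, against 12.1 in NK and 12.1 in NW, so the difference ran through the cells. For HSK against NK, the Igfbp7 ratio was also 2.53 in adventitial cells and 2.035 in all other cells. Apoe, the lipid-carrying apolipoprotein, had 3866 CPM in HSK, 4846 in HSW, 1664 in NK and 1746 in NW, ratios of 2.32 and 2.78.

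Sfrp1, a secreted Wnt antagonist, had 289 CPM in HSK, 274 in HSW, 131 in NK and 139 in NW. The HSK level was 2.21 times that of NK [1.66, 2.95] and the HSW level 1.98 times that of NW [1.46, 2.71]. Mgp, matrix Gla protein, an inhibitor of calcification, took a large part of the UMIs, at 71400 CPM in HSK, 68360 in HSW, 34100 in NK and 37240 in NW. Its ratios were 2.09 for HSK against NK and 1.84 for HSW against NW, so a larger part of each HySu sum went to this gene. Fth1, the ferritin heavy chain that stores iron and a target of the factor NRF2, stood at 20440 CPM in HSK, 19600 in HSW, 8688 in NK and 8540 in NW. Lpl, lipoprotein lipase, had 255 CPM in HSK, 254.7 in HSW, 134 in NK and 101 in NW.

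Structural matrix did not move with them. None of 20 fibrillar collagen and matrix genes reached 2-fold in either direction between HSK and NK, and in HSW against NW none of 19 was 2-fold higher and 2 were 2-fold lower, Tnxb at 0.253 [0.143, 0.423] and Col16a1 at 0.288 [0.153, 0.511]. Col1a1 had 932 CPM in HSK, 682 in HSW, 997 in NK and 1015 in NW. Eln, the elastin gene, had 1722 CPM in HSK, 962 in HSW, 961 in NK and 1123 in NW, and thus stood apart in HSK.

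Single niche ligands were lower under HySu. Wnt2, a Wnt ligand of the alveolar niche, had 72.9 CPM in HSK, 66.8 in HSW, 158 in NK and 152 in NW, ratios of 0.461 [0.293, 0.703] for HSK against NK and 0.438 [0.272, 0.687] for HSW against NW. Kitl, the ligand of the receptor Kit, had 67.7 CPM in HSK, 54.4 in HSW, 180 in NK and 160 in NW, ratios of 0.377 [0.237, 0.578] and 0.339 [0.202, 0.549]. Igfbp3, another binder of insulin-like growth factors, had 140.5 CPM in HSK, 239.8 in HSW, 466 in NK and 524 in NW. Fgf10, which sustains alveolar epithelium, differed less, at 72.9 CPM in HSK, 94.0 in HSW, 99.2 in NK and 101 in NW. Of the niche ligands with enough UMIs, 3 of 24 were 2-fold higher and 6 lower in HSK against NK, where 3.42% of all genes were higher and 16.2% lower. In HSW against NW 1 of 23 was higher and 5 lower, beside 2.39% and 11.3% of all genes. These counts are small, and nothing is read from them about the list.

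The immediate early genes, transcription factors and regulators induced within minutes of a stimulus, held the most 2-fold lower genes by number of any list. Shorter lists described below reached as large a share or larger. At least 2-fold lower were 10 of 12 sterol synthesis genes in HSK against NK and 4 of 5 ERK genes in HSW against NW. In HSK against NK, 18 of 22 immediate early genes were at least 2-fold lower and none higher. Their median log2 ratio was -1.08 over 26 genes against -0.39 for all genes. In HSW against NW, 13 of 23 were lower and none higher, with a median of -1.20 over 25 genes against -0.29. Fos had 1285 CPM in HSK, 1360 in HSW, 2921 in NK and 3412 in NW, and Jun had 1046 in HSK, 952 in HSW, 2462 in NK and 2443 in NW. Nr4a1, an orphan nuclear receptor, had 96.3 CPM in HSK, 210 in HSW, 346 in NK and 769 in NW. The same list had medians of -0.43 in adventitial cells and -0.96 in all other cells for HSK against NK, and of -0.12 and -0.68 for HSW against NW.

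Targets and feedback inhibitors of ERK signalling, form a list written after the values were seen. All 7 measured genes were lower in HSK than in NK (median log2 -1.33) and all 8 in HSW than in NW (median -1.11). Of all genes measured, 4773 of 6904 also lay lower in HSK than in NK and 4117 of 6205 in HSW than in NW. Past 2-fold were 3 of 6 ERK genes in HSK against NK and 4 of 5 in HSW against NW. Dusp6, a phosphatase that switches ERK off, had 41.6 CPM in HSK, 32.1 in HSW, 138 in NK and 148 in NW. It also stands in the immediate early list, so the 2 lists are not separate observations. Etv1, an ETS factor induced by fibroblast growth factor signalling, had 18.2 CPM in HSK, 47.0 in HSW, 141 in NK and 127 in NW. Receptors for growth factors stood at medians of -0.52 over 29 genes for HSK against NK and -0.54 over 27 for HSW against NW.

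Thbs1, thrombospondin, a matricellular protein that binds the latent form of TGF-beta, was the secreted gene with the most UMIs among the strongly lower ones, with 219 CPM in HSK, 282 in HSW, 1072 in NK and 1208 in NW. It was 0.204 times as high in HSK as in NK [0.161, 0.256] and 0.233 times as high in HSW as in NW [0.189, 0.285]. Fewer cells carried it: 27.6% in HSK and 29.9% in HSW, against 66.9% in NK and 78.7% in NW. The median member had none in HSK or HSW, 4.18 per 10000 UMIs in NK and 4.89 in NW, although the HySu members were the deeper ones. Thbs1 was also lower outside the members. For HSK against NK its ratio was 0.0842 in adventitial cells, on few UMIs, and 0.265 in all other cells. For HSW against NW these ratios were 0.377 and 0.400.

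**Figure D3:**
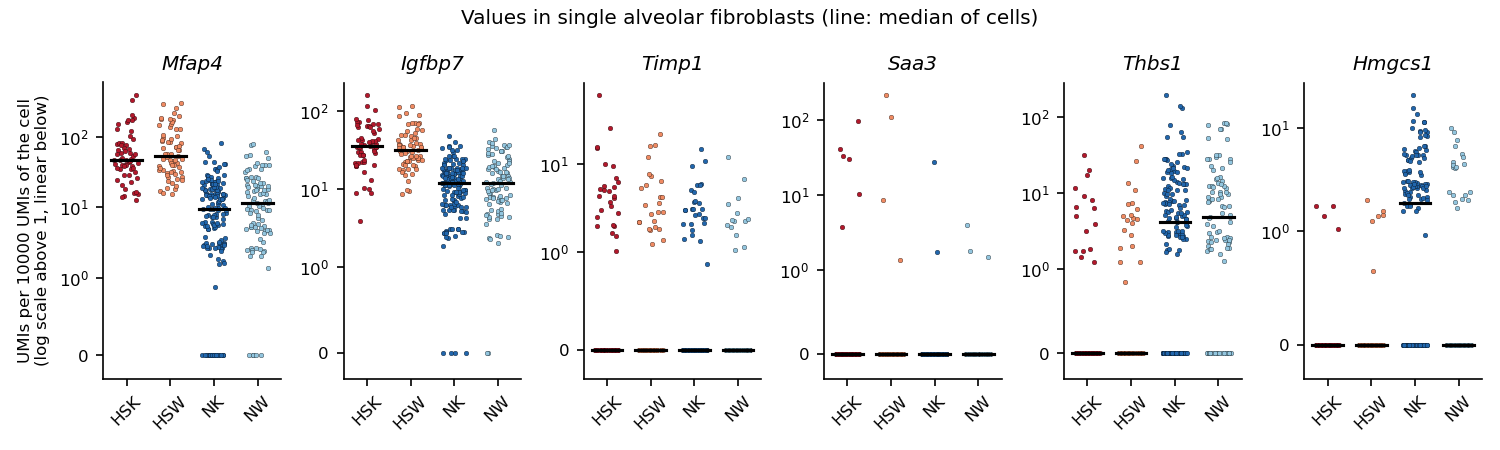
Points are single alveolar fibroblasts by library and bars their medians, for 6 genes, in UMIs per 10000 UMIs of the cell (log scale above 1, linear below). Mfap4 and Igfbp7 are higher in nearly the whole of HSK and HSW, Timp1 and Thbs1 differ in the number of cells above 0, and the Saa3 of HSK and HSW lies in 6 and 4 cells.

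Mitochondrially encoded transcripts were higher under HySu. mt-Cytb, a subunit of respiratory complex III, had 4285 CPM in HSK, 4574 in HSW, 1046 in NK and 1865 in NW, ratios of 4.10 [3.75, 4.48] for HSK against NK and 2.45 [2.27, 2.66] for HSW against NW. All 6 genes with enough UMIs were at least 2-fold higher in HSK than in NK, and 3 of 6 in HSW than in NW, with list medians of 1.35 and 0.93. Ribosomal protein genes had medians of 0.63 and 0.50 over 76 genes, with 9 of 76 and 5 of 75 at least 2-fold higher. In adventitial cells the mitochondrial medians were 1.52 and 0.81, and in all other cells 1.05 and 0.65, so the shift was not confined to the alveolar set. The median mitochondrial share of a member's UMIs was 1.89% in HSK, 2.12% in HSW, 0.948% in NK and 1.32% in NW. The part of RNA quality or of the depth limits in these shifts was not tested.

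Some large ratios rested on few cells. Saa3, an acute-phase apolipoprotein, had 151 UMIs in HSK, 185 in HSW, 36 in NK and 4 in NW, but these lay in 6 cells of HSK, 4 of HSW, 2 of NK and 3 of NW, and the top 3 cells held 81.5% of them in HSK and 99.5% in HSW. Leukocytes with a Saa3 UMI made up 5.03% in HSK, 9.37% in HSW, 7.69% in NK and 11.5% in NW. Adventitial cells had 140 Saa3 UMIs in HSK, 232 in HSW, 0 in NK and 2 in NW. Acta2, smooth muscle actin and the usual marker of contractile fibroblasts, had 115 UMIs in HSK, 369 in HSW, 275 in NK and 60 in NW. The top 3 cells held 85.2% of these in HSK, 97.3% in HSW, 79.6% in NK and 48.3% in NW. Leaving out the 2 cells of HSK, 3 of HSW and 2 of NK with at least 0.5% of UMIs in smooth muscle genes, Acta2 had 19 UMIs in HSK, 10 in HSW, 63 in NK and 60 in NW, and its ratio of HSW to NW was 0.217, against 7.69 with them. Those cells carried Myh11, a smooth muscle myosin: it was at 0 UMIs in HSK, HSW and NW without them and at 2 in NK. Tm4sf1, a tetraspanin-like membrane protein, had 81 UMIs in HSK, 31 in HSW, 15 in NK and 7 in NW, and the top 3 cells of HSK held 88.9% of that library's.

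**Figure D4:**
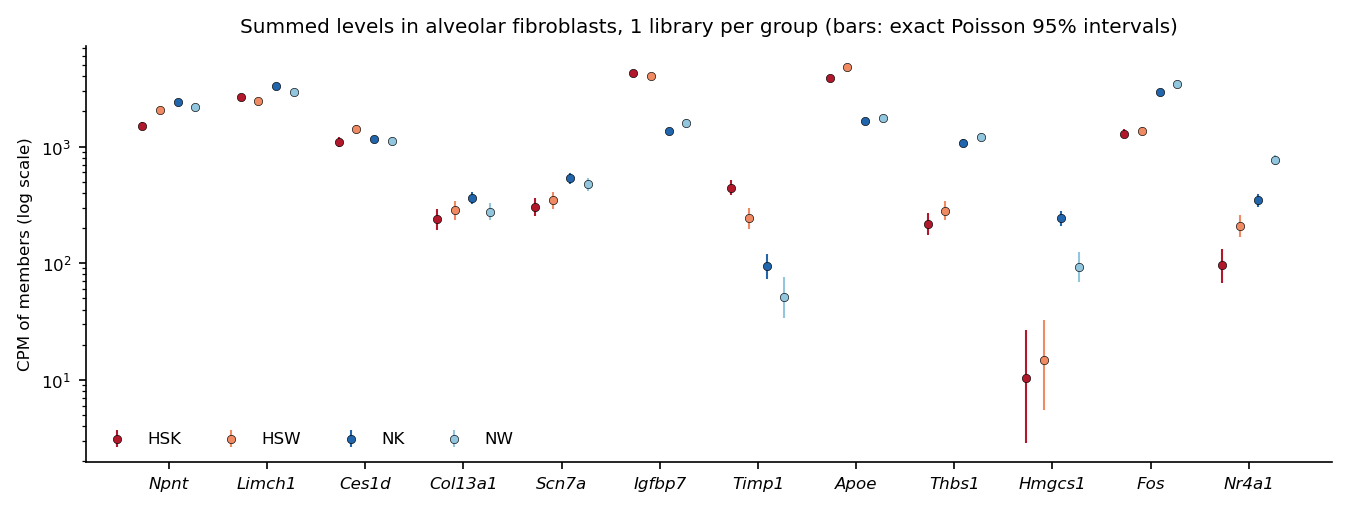
Points are the summed level of each gene in the members of HSK, HSW, NK and NW (CPM, log scale), and bars are exact Poisson 95% intervals. Identity genes (Npnt to Scn7a) differ little between the libraries, Igfbp7, Timp1 and Apoe are high in HSK and HSW, and Thbs1, Hmgcs1, Fos and Nr4a1 are high in NK and NW.

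The knockout in normoxia gave fewer genes past 2-fold than HySu in either genotype. NK against NW had 97 of 4244 genes at least 2-fold higher (2.29%) and 41 at least 2-fold lower (0.966%), and the median log2 ratio of all genes was 0.02. The genes of sterol synthesis stood out among the higher ones, and that list was written after the values were seen. They encode the enzymes that build cholesterol from acetyl-CoA and the sensors that switch them on when membrane sterol is low. Of 13 with enough UMIs, 7 were at least 2-fold higher in NK and none lower, and 17 of 21 measured genes lay higher (median log2 0.83).

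Hmgcs1, which makes HMG-CoA at the head of the pathway, had 4 UMIs in HSK, 6 in HSW, 169 in NK and 47 in NW. It was 2.61 times as high in NK as in NW [1.88, 3.69], and 55.0% of NK members carried it, against 21.3% of NW members, 6.90% in HSK and 8.96% in HSW. Of leukocytes 22.1% carried it in HSK, 18.0% in HSW, 19.98% in NK and 18.3% in NW. At an equal 4700 UMIs per cell the members' shares were 3.45% in HSK, 9.26% in HSW, 51.9% in NK and 19.6% in NW, over 58, 54, 54 and 51 cells. The leukocyte shares at that depth were 12.5% in HSK, 10.8% in HSW, 16.15% in NK and 11.9% in NW. Members of HSK and HSW were thus at or below the leukocytes of their libraries, which may express Hmgcs1 themselves. In all cells other than members the Hmgcs1 ratio was 0.492 for HSK against NK and 0.603 for HSW against NW, where the members stood at 0.0429 and 0.160.

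Later steps of the pathway followed. Msmo1, a sterol demethylase, had 13 UMIs in HSK, 7 in HSW, 85 in NK and 21 in NW. Cyp51, which removes a methyl group from lanosterol, had 5 UMIs in HSK, 6 in HSW, 73 in NK and 14 in NW, an NK to NW ratio of 3.79 [2.12, 7.27]. Fdft1, squalene synthase, had 9 UMIs in HSK, 2 in HSW, 73 in NK and 14 in NW, and Hsd17b7 had 4, 1, 55 and 7 in HSK, HSW, NK and NW. Insig1, the sterol sensor that holds back the pathway's activator, had 13 UMIs in HSK, 11 in HSW, 55 in NK and 16 in NW. Sqle, squalene epoxidase, stood just under 2-fold at 1.998, with 1 UMI in HSK, 0 in HSW, 55 in NK and 20 in NW.

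The list summed to 434.5 CPM in HSK, 467.3 in HSW, 1581 in NK and 818.8 in NW, so the knockout lay above the wild type in normoxia and the HySu libraries lay together below both. In HSK against NK, 10 of 12 sterol genes were at least 2-fold lower (median log2 -1.67 over 19 genes), and in HSW against NW 1 of 3 (median -0.54 over 13). The NK library enters both the NK to NW and the HSK to NK ratios, so their opposite signs are not separate observations. For NK against NW the list median was 0.49 in adventitial cells and 0.12 in all other cells, and for HSK against NK it was -1.17 and -0.45.

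**Figure D5:**
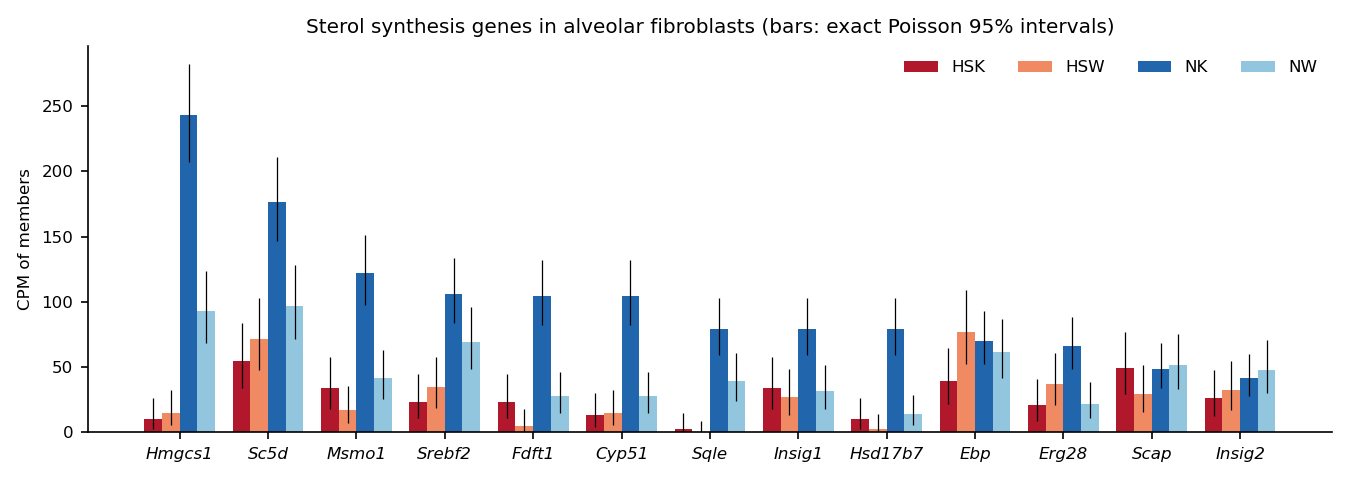
Bars are the summed level (CPM, linear from 0) of 13 sterol synthesis genes in the members of HSK, HSW, NK and NW, with exact Poisson 95% intervals. NK is highest for Hmgcs1, Sc5d, Msmo1, Srebf2, Cyp51, Fdft1, Sqle, Hsd17b7, Insig1 and Erg28. HSK and HSW lie below NW for Hmgcs1, Cyp51, Fdft1, Sqle and Hsd17b7. For Erg28, HSW (37.1 CPM) lies above NW (21.8), and HSK is at 20.8.

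Because these genes differed together, 250 bases upstream of the start of each were searched for the boxes through which the sterol-sensing factor SREBP and its partner NF-Y are known to act. Of the 25 listed genes, 20 had a promoter in the RefSeq table (build GRCm38.p6). CCAAT, the NF-Y box, read on either strand (ATTGG on the reverse), was in 16 of 20 (80%), against 33.8% of all 32851 promoters. CACCCCAC, part of the sterol regulatory element, was in 2 of 20 (10%) against 2.58%. The 4 promoters shown were chosen by the values, from listed genes at least 2-fold higher in NK than in NW with a promoter in the table. They are the 4 with the most UMIs in NK and NW together, and capitals mark both boxes on the strand of the gene. A match describes these letters and is not evidence of a bound site.
Hmgcs1 promoter, chr13:119690101-119690350, plus strand: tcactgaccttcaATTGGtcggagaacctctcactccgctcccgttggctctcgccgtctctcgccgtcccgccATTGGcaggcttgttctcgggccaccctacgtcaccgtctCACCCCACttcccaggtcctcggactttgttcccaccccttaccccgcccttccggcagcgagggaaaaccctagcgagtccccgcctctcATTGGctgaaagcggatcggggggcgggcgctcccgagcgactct
Msmo1 promoter, chr8:64733579-64733828, minus strand: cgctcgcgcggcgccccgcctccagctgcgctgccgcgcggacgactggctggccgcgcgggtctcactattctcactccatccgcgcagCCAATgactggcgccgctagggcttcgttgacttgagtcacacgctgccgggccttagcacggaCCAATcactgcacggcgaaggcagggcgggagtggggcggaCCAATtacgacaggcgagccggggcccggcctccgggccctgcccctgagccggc
Cyp51 promoter, chr5:4104698-4104947, minus strand: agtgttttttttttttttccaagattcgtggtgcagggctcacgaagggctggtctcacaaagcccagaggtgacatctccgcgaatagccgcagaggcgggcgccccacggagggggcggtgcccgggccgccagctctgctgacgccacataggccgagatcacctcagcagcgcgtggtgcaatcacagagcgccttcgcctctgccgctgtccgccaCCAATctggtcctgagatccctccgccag
Insig1 promoter, chr5:28071162-28071411, plus strand: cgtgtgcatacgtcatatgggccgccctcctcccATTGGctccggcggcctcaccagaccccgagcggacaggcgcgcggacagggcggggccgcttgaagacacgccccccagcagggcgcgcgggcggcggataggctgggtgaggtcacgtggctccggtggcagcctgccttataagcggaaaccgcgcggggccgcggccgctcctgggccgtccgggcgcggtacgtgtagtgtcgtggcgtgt

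Glucocorticoid-induced genes had 5 of 20 members at least 2-fold higher in NK (median log2 0.37 over 23 genes) and none lower. Lipid handling genes, which include Hmgcs1 and Insig1, had 4 of 16 higher (median 0.37 over 18). Activated fibroblast genes had 3 of 12 higher (median 0.46 over 15), namely Acta2, Myl9 and Tpm2. Without the cells rich in smooth muscle genes these 3 stood at 0.775, 0.872 and 1.14 times NW. Errfi1, a feedback inhibitor of the EGF receptor, had 200.3 CPM in HSK, 89.0 in HSW, 374 in NK and 168 in NW, an NK to NW ratio of 2.22 [1.73, 2.87]. Glul, glutamine synthetase, had 122 CPM in HSK, 98.9 in HSW, 247 in NK and 93.0 in NW, a ratio of 2.66 [1.92, 3.75]. Fkbp5, a standard glucocorticoid-induced gene, did not follow, with 16 UMIs in NK and 13 in NW. Slc10a6, a steroid sulphate transporter, had 64 UMIs in NK, found in 37 cells, and 11 in NW, found in 9. Sema3c, an axon guidance ligand that also acts on vessels, had 47 UMIs in NK and 4 in NW, a ratio of 8.54 [3.12, 32.6]. Its NK level in members was below that in all other NK cells.

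Lower in NK than in NW were Nr4a1 at 0.450 [0.382, 0.530] and Atf3, a stress-induced factor, at 0.378 [0.291, 0.488], the 2 of 23 immediate early genes past 2-fold. Plk2, a stress-responsive kinase, had 21 UMIs in NK and 59 in NW. Il6, the cytokine, had 9 UMIs in NK and 29 in NW. Hopx (11 UMIs in NK and 42 in NW) and Apod (21 in NK and 65 in NW) were also among the lowest, but the top 3 NW cells held 90.5% of the Hopx UMIs and 84.6% of the Apod UMIs. The 10 surfactant and type 2 cell markers, 9 of them higher in NK, had a median of 0.45, so alveolar type 2 RNA was higher in the NK members too, and its part in the other ratios was not tested. Mitochondrially encoded genes were lower in NK than in NW for 7 of 7, with a median of -0.52 and none past 2-fold.

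The knockout under HySu had fewer genes measured. HSK against HSW had 31 of 2372 genes at least 2-fold higher (1.31%) and 42 at least 2-fold lower (1.77%). NK against NW had 2.29% higher and 0.966% lower, so neither contrast had the larger share in both directions. Rgs2, which speeds the switching off of G protein signals from vasoconstrictor receptors, headed the lower genes, with 125 CPM in HSK, 603 in HSW, 339 in NK and 368 in NW. It was 0.207 times as high in HSK as in HSW [0.149, 0.283], with UMIs in 27 of 58 HSK members and 46 of 67 HSW members. In all other cells Rgs2 stood at 0.678 times in HSK against HSW. HSK was the low library and HSW the high one of the 4. Chosen without Mfap4 and Mfap5, the set gave a weaker Rgs2 ratio of 0.459 [0.362, 0.577] for HSK against HSW, and 0.802 in place of 0.368 for HSK against NK.

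Vegfa, the vascular endothelial growth factor, had 36.4 CPM in HSK, 98.9 in HSW, 119 in NK and 214 in NW. Its ratios were 0.368 [0.185, 0.692] for HSK against HSW and 0.558 [0.414, 0.750] for NK against NW. In adventitial cells Vegfa went the other way for HSK against HSW, at 8.74 [3.10, 34.0] on 32 and 4 UMIs. In all other cells that ratio was 0.589. Nr4a1 was lower in HSK than in HSW at 0.458 [0.303, 0.682], and Btg2, an antiproliferative immediate early gene, at 0.436 [0.349, 0.542]. Identity genes lay lower in HSK than in HSW for 24 of 30, with a median log2 ratio of -0.17 and none past 2-fold, where 2618 of all 5035 genes lay lower. In HSK against NK 26 of 30 lay lower, with a median of -0.51 against -0.39 for all genes, and 4 of 27 were past 2-fold lower (Wnt2, Meox2, Tbx4 and Nebl). In HSW against NW 20 of 30 lay lower, with a median of -0.19 against -0.29 for all genes, and Wnt2 and Meox2 were past 2-fold lower. Without Mfap4 in the rule, 13 members of HSK, 6 of HSW, 6 of NK and 5 of NW would not have passed. Their part in these identity ratios was not tested.

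Higher in HSK were 5 of 17 glucocorticoid-induced genes, with none lower and a median of 0.26 over 21. Sgk1, a kinase that controls ion transport, had 138 CPM in HSK, 39.6 in HSW, 253 in NK and 192 in NW, and was 3.49 times as high in HSK as in HSW [1.962, 6.53]. The HSK level of Sgk1 in members was below that in all other HSK cells. Errfi1 was 2.25 times as high [1.497, 3.44] and Mt2, a metallothionein that binds zinc, 2.18 times [1.81, 2.65]. Fibrillar collagen and matrix genes leaned the same way, 18 of 22, with 2 of 19 past 2-fold: Tnxb, tenascin X, at 2.63 [1.49, 4.83] and Col16a1 at 2.596 [1.39, 5.09]. Both fell under 2-fold without Mfap4 and Mfap5 in the rule, at 1.878 (Tnxb) and 1.709 (Col16a1), and Col16a1 stood at 1.052 with a marker sum of at least 0.8%. The top 3 HSK cells held 56.8% of that library's Col16a1 UMIs. Lcn2, lipocalin, is one of the 5 glucocorticoid-induced genes and had 100 UMIs in HSK, 30 in HSW, 32 in NK and 20 in NW. Of the 100, 85 lay in 3 HSK cells, and its HSK to HSW ratio of 3.51 was 0.788 without Mfap4 and Mfap5 in the rule. All 7 surfactant and type 2 cell markers measured were higher in HSK, with a median of 0.57, and their part in the other ratios was not tested.

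Knockout ratios in normoxia and under HySu share no library and were almost uncorrelated across genes. Over 2330 genes measured in both, Pearson's r of the log2 ratios was 0.06. Counting error on few UMIs pulls r toward 0, so it cannot tell whether the knockout ratios differed between the settings. HSK against HSW had 30 of these at least 2-fold higher and NK against NW 13. The 2 in both were 15.4% of those in NK against NW and 6.67% of those in HSK against HSW. At least 2-fold lower were 37 in HSK against HSW and 15 in NK against NW. The 3 in both were 20% of those in NK against NW and 8.11% of those in HSK against HSW. Of all genes, 1.31% were higher and 1.77% lower in HSK against HSW, and 2.29% and 0.966% in NK against NW. Another 3 genes were past 2-fold in opposite directions.

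Members also varied among themselves. At an equal 4700 UMIs per cell, which kept 58 cells of HSK, 54 of HSW, 54 of NK and 51 of NW, 3 genes were among the 20 with the highest Fano factor (variance over mean) in all 4 libraries: Mgp, Dcn and Mt1. The Fano factor of Mgp was 71.7 in HSK, 103 in HSW, 62.2 in NK and 76.8 in NW, against medians over genes of 1.48, 1.53, 1.57 and 1.60 for HSK, HSW, NK and NW. Dcn, decorin, which adventitial fibroblasts express strongly, averaged 3.12 UMIs per cell in HSK, 2.69 in HSW, 3.41 in NK and 2.35 in NW, with Fano factors of 30.3, 21.8, 29.7 and 32.4 in HSK, HSW, NK and NW. Cells at or over both fibroblast limits, left out by the rule, numbered 53 in HSK, 75 in HSW, 78 in NK and 46 in NW.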

How the data were processed

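Cells of lung, pooled from 5 mice per group, were captured in microwells with the GEXSCOPE kit, 1 library per group. Per the submitters' processing notes, reads went through cutadapt 1.17, STAR 2.6.1a, featureCounts 2.0.1 and Scanpy, on GRCm38 (mm10); the order and settings are not given in the sources used here. The authors deposited, as matrices per library, raw UMI counts per gene and cell, already limited to cells over a depth that differs between libraries (3182 to 4726 UMIs).

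Cells with at least 200 genes and at most 20% mitochondrial UMIs were kept, which removed 1 cell of HSW and 1 of NK. Counts of members were summed per library in Python 3.11.15 (numpy 2.4.6, scipy 1.17.1, pandas 2.3.3) and divided by their total. With 1 library per group no count model was fitted. Ratios have exact conditional binomial intervals at 95%, and a gene counts as past 2-fold at a ratio of at least 2 or at most 0.5 with at least 50 UMIs in the pair; list medians use log2 ratios with 0.5 UMIs added, over genes with at least 20 UMIs. The ratio code was tested on simulated counts.

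Scrublet (scanpy 1.11.5) marked 30, 8, 1 and 4 cells of HSK, HSW, NK and NW, together under 0.5% of all cells and none of them a member, so the caller did not work here and doublets were limited only by the rule. The members, and the gene lists fixed at the outset, were chosen with earlier results of these data known; 3 further lists (sterol, ERK, microfibril) were written after the values were seen. The text names, per comparison, the 10 highest and 10 lowest genes with at least 50 UMIs in the pair, at least 50 CPM in a library and a level no lower than in other cells, or a selection of them, 2 members of each list at either end, and members whose role is described. The genes of sterol synthesis and those named for resting on few cells were picked after their values were seen. Some genes of the sterol list are not reported here. Alternatives were TMM scaling (edgeR 4.0.16, R 4.3.3), totals without mitochondrial, ribosomal and haemoglobin genes, other UMI minimums, deeper or thinned cells, and other limits of the rule.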

Additional observations from a re-analysis of the deposited data

Results flagged for a closer look

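Some genes went one way under a contrast in 1 setting and the opposite way in the other. The difference between the settings was not tested in any of them, since each group is 1 library. Lgalsl, a galectin-related gene, was higher under HySu in the knockout, with a ratio of 2.01 for HSK against NK, and lower in the wild type, with a ratio of 0.409 for HSW against NW; it had 40 UMIs in HSK, 17 in HSW, 36 in NK and 52 in NW.

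The contractile genes had knockout ratios of opposite direction in normoxia and under HySu. Acta2 was 3.33 times as high in NK as in NW and 0.328 times as high in HSK as in HSW. Tpm2, a tropomyosin, stood at 2.34 for NK against NW and 0.402 for HSK against HSW. Myl9, a myosin light chain, stood at 2.61 for NK against NW and 0.422 for HSK against HSW. A few cells held these UMIs: without the 2 cells of HSK, 3 of HSW and 2 of NK rich in smooth muscle genes, the NK to NW ratios were 0.775 for Acta2, 1.14 for Tpm2 and 0.872 for Myl9, and the HSK to HSW ratios were 1.998, 1.78 and 2.008 for the same genes.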

How the results depend on the processing

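No paired analysis was possible because each group is 1 library and no replicate number pairs them. There was no replicate to leave out. With TMM scaling the genes past 2-fold numbered 279 higher and 303 lower in HSK against NK, and 201 higher and 161 lower in HSW against NW. TMM turned the sign of 5 list medians. In HSK against NK they went from -0.23 to 0.056 (activated fibroblast), -0.25 to 0.038 (elastic fibre) and -0.20 to 0.083 (matrix remodelling). In HSW against NW they went from -0.19 to 0.082 (identity outside the rule) and -0.18 to 0.087 (niche ligands). With at least 100 UMIs in the pair, the genes higher and lower were 8 and 11 in HSK against HSW, 73 and 212 in HSK against NK, 36 and 105 in HSW against NW, and 17 and 9 in NK against NW. With at least 20 UMIs they were 207 and 269, 265 and 1524, 231 and 1084, and 408 and 294 in the same order. Fewer or more genes are tested under these minimums.

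Over cells at or above the deepest library minimum, 270 genes were lower in HSK against NK and 196 in HSW against NW, and 43 higher in NK against NW. The shares of members were 0.932% in NK and 0.859% in NW. The Fundc1 fold of NW over the floor of NK was 2.34, and the myofibroblast marker median in HSW against NW was 0.51. Thinned to 4700 UMIs, 176 genes were lower in HSK against NK and 129 in HSW against NW. In NK against NW 34 were higher and 24 lower. The shares were then 0.979% in NK and 0.868% in NW, the Fundc1 fold over the floor 1.76, and the myofibroblast median 1.565. These settings keep fewer cells.

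With a marker sum of at least 0.8%, 15 genes were higher in HSK against HSW, the shares were 1.255% in NK and 0.876% in NW, and log2 ratios turned for Tm4sf1 (-0.86) and Igfbp5 (-0.0485) in HSK against HSW and Hopx (0.89) in NK against NW. The medians of smooth muscle markers (-0.25) and p53 genes (0.0454) turned in HSW against NW. Further settings were chosen after seeing the data. Without Mfap4 and Mfap5 in the rule, Tm4sf1 turned to -1.18 in HSK against HSW and -0.47 in HSK against NK, Igfbp5 to -0.16 in HSK against HSW, and the activated fibroblast median to -0.0838 in HSW against NW. Without the cells rich in smooth muscle genes, log2 ratios turned to 0.97 (Acta2) and 0.81 (Tpm2) in HSK against HSW, to -2.14 (Acta2), -0.58 (Myl9) and -0.84 (Tpm2) in HSW against NW, and to -0.37 (Acta2) in NK against NW. The activated fibroblast medians turned to 0.0590 in HSK against HSW and -0.44 in HSW against NW, and the smooth muscle median to -1.17 in HSW against NW. The cause of these changes was not tested. Among list medians 1332 values stayed within their spread of the reported one, 137 moved and 13 turned; among the named genes 715 stayed, 64 moved and 12 turned.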

Other observations

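Some gene groups of the alveolar fibroblasts were not described above. Members of the circadian clock list were lower in HSK than in NK for 11 of 11 measured genes (median log2 -1.10, with 3 of 6 past 2-fold) and in HSW than in NW for 10 of 13 (median -0.75, with 1 of 4 past 2-fold). Of all genes 4773 of 6904 also lay lower in HSK than in NK and 4117 of 6205 in HSW than in NW, with 16.2% and 11.3% past 2-fold lower. The all-gene medians were -0.39 for HSK against NK and -0.29 for HSW against NW. The TGF-beta and BMP response list had a median of -0.56 over 17 genes in HSK against NK and -0.62 over 18 in HSW against NW, with 2 of 11 and 3 of 10 genes past 2-fold lower. Cyp1a1, the standard target of the aryl hydrocarbon receptor, had 18 UMIs in HSK, 24 in HSW, 9 in NK and 2 in NW, and Cyp1b1 had 6 in HSK, 7 in HSW and none in NK or NW. Chosen after their values were seen, the chemokine Ccl2 had 1 UMI in HSK, 3 in HSW, 17 in NK and 12 in NW, and Cxcl1 had 40, 37, 52 and 78 in HSK, HSW, NK and NW.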
